A study of Mus musculus with 8 samples.

Results

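The genes of 10 receptors through which the hypothalamus reads hormones and metabolic signals were followed in embryonic mouse hypothalamus with and without Foxd1. They were taken by gene symbol, and all 10 were found in all 8 expression tables, among 24717 symbols in all and 22725 shared by every table. By role they are the steroid hormone receptors Esr1, Pgr, Nr3c1 and Nr3c2, the cytokine-type receptors Lepr and Ghr, the receptor tyrosine kinases Insr and Igf1r, and the G protein-coupled receptors Ghsr and Mc4r. Steroid receptors are ligand-activated transcription factors held ready by heat shock chaperones, and the brain uses them to read estrogen, progesterone, glucocorticoids and mineralocorticoids. The leptin and growth hormone receptors signal through JAK kinases and STAT proteins, while the insulin and IGF1 receptors are kinases that act through IRS adaptors, PI3 kinase and AKT. The ghrelin receptor and the melanocortin 4 receptor couple to G proteins and act on opposite sides of the control of food intake in adult mammals.

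The study sequenced RNA of dissected hypothalamus from Foxd1-mutant embryos and from embryos labelled wild-type. The embryos were of 3 stages, E12.0, E12.5 and, later, E17.5. Foxd1 belongs to the forkhead family of transcription factors, and the title names the question, whether anterior hypothalamic neurons complete their differentiation without it. Of the 8 libraries, 4 were mutant and 4 wild-type. Each genotype had 1 library at E12.0, 1 at E12.5 and 2 at E17.5. Pooled RNA went into each library, from embryos lacking functional Foxd1 or from control embryos, with 8 mutant and 10 control embryos harvested over the whole study. The protocol describes the controls in a way that can be read as either genotype, so the genotype here is that of the source name of each library. It also mentions dissection at E12.5 and E17.5 only, while 1 pair of libraries is labelled E12.0. No source says whether the pools came from separate litters, so a p-value at E17.5 reflects how much these libraries vary, which may be technical. In pooled tissue, fewer cells of a kind and less RNA per cell cannot be told apart.

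Values are FPKM, numbers of sequenced fragments scaled to the length of the transcript and to the total mapped in the library. Foxd1 was at 2.77 FPKM in mutant and 24.95 FPKM in wild-type at E12.0, and at 2.497 FPKM in mutant and 30.3 FPKM in wild-type at E12.5. Its E17.5 values were 0.396 and 0.230 FPKM in the mutant libraries, against 3.90 and 1.96 FPKM in the wild-type libraries, so every library lay on the side of its label. At E17.5 the depth estimated from the steps between low values was 40.3 and 30.5 M fragments in the mutant and 34.7 and 43.1 M in the wild-type libraries, and no firm estimate could be had at E12. All 10 hypothalamic marker genes were at or above 1 FPKM in all 8 libraries. At E17.5, 6 of them had both mutant libraries below both wild-type libraries, beside 22.2% of the 13235 genes that averaged 1 FPKM or more. Markers of neighbouring tissue were unequal at E17.5: summed choroid plexus markers were at 12.3 and 353 FPKM in the mutant against 60.2 and 144 FPKM in the wild-type libraries, and summed pituitary markers at 53.8 and 70.0 FPKM against 87.7 and 21.7 FPKM. Small RNA genes held 14.7% and 9.87% of FPKM in the mutant and 14.2% and 13.9% in the wild-type libraries at E17.5. Their share was 21.2% in mutant and 24.5% in wild-type at E12.0, and 14.7% in mutant and 23.2% in wild-type at E12.5.

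Most of these receptors were scarce at E12 and were present at E17.5 in both genotypes, and none of them changed past the adjusted threshold in the mutant. The largest difference was in the leptin receptor gene Lepr, at 3.20 and 3.49 FPKM in the E17.5 mutant libraries, against 2.90 and 1.88 FPKM in the wild-type libraries. At E17.5, 0 of the 9 tested members passed an adjusted p of 0.05 by limma, beside 0.00756% of 13235 genes, and 0 of the 9 had an unadjusted p under 0.05, beside 5.7% of genes. The lowest unadjusted p was 0.0547, for Lepr. Foxd1 itself did not pass the adjusted threshold at E17.5 (log2 difference -1.54, limma adjusted p = 0.689). Nor did it pass over all stages (-2.25, limma adjusted p = 0.749). A member that did not pass is therefore not shown to be unchanged. Of the 9 log2 differences, 8 were above 0, beside 51% of genes. They ran between -0.03 and 0.37 with a median of 0.08, beside a median of 0.00284 over all genes. Ghsr, under a mean of 1 FPKM, was not tested.

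**Figure D1:**
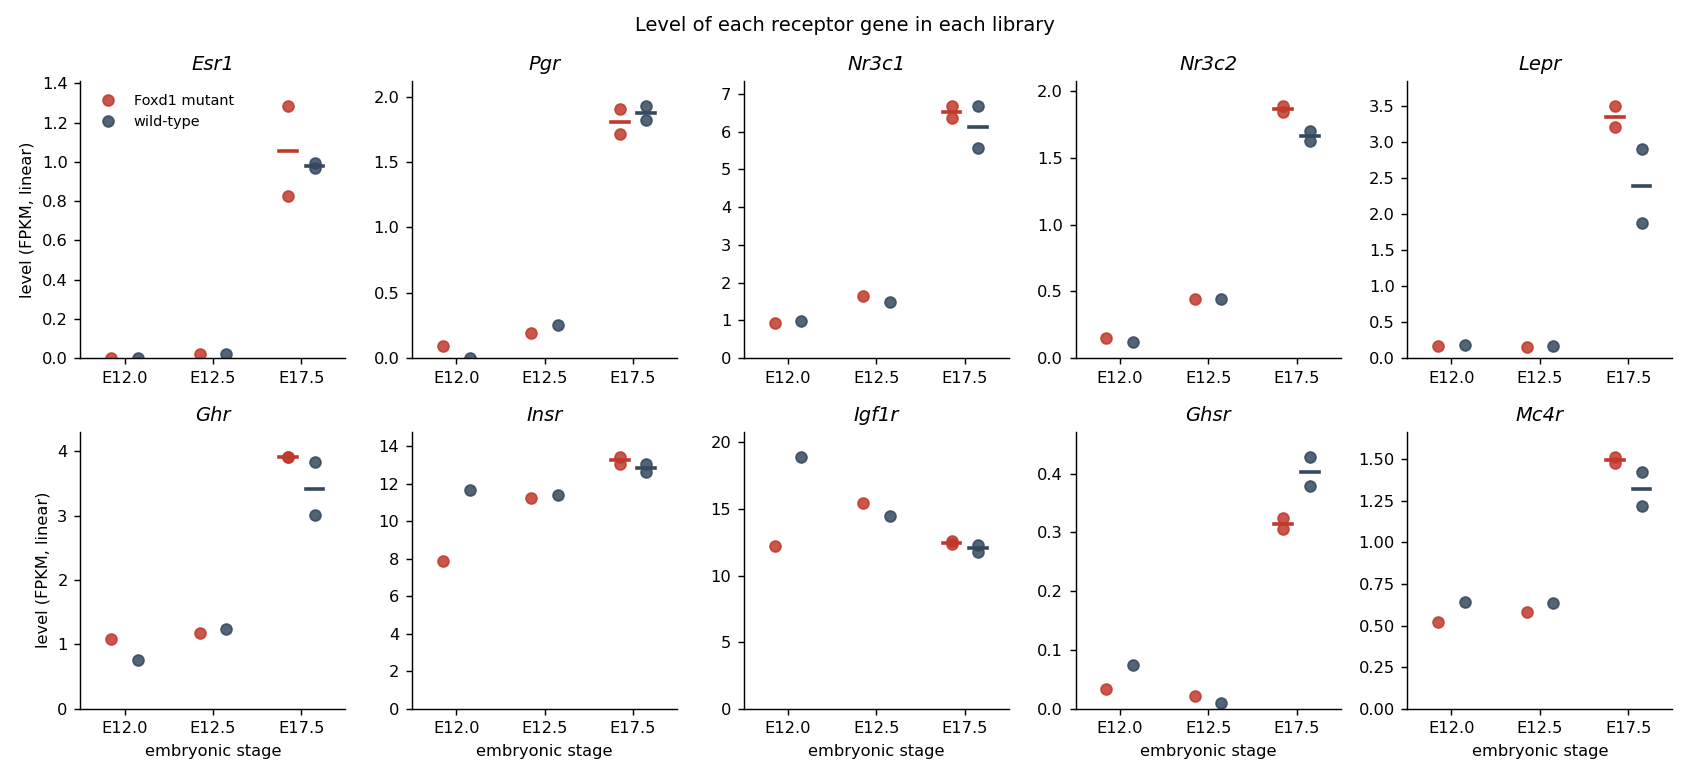
Level of each of the 10 receptor genes in FPKM (linear axis, each panel with its own scale from 0) by embryonic stage, mutant left of wild-type; each point is a library and each bar the mean of the 2 libraries of a genotype at E17.5. The other 8 panels lie low at E12 and high at E17.5 in both genotypes, Insr and Igf1r are high throughout, and the mutant point lies below the wild-type point at E12.0 in both.

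The sex steroid receptor genes were close to absent early. Esr1, which encodes estrogen receptor alpha, was listed at 0 in both E12.0 libraries, and at E12.5 it was at 0.0193 FPKM in mutant and 0.0224 FPKM in wild-type. By E17.5 it stood at 1.28 and 0.826 FPKM in the mutant libraries, against 0.992 and 0.970 FPKM in the wild-type libraries. The 2 mutant values lay on either side of the wild-type pair, so the spread between the mutant libraries exceeded the difference between the genotypes, with a log2 difference of 0.04 (standard error 0.135, 95% interval -0.29 to 0.38, limma adjusted p = 0.918). An Esr1 level just over the limit for testing corresponded to an estimated 216 and 105 fragments in the mutant and 144 and 174 in the wild-type libraries. Its paralogue Esr2, estrogen receptor beta, stayed under that limit, at 0.189 and 0.357 FPKM in the mutant and 0.248 and 0.254 FPKM in the wild-type libraries at E17.5.

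Pgr, the progesterone receptor gene and a classical estrogen-induced gene, had low values at E12, with 0.0963 FPKM in mutant and a listed 0 in wild-type at E12.0, and 0.195 FPKM in mutant and 0.257 FPKM in wild-type at E12.5. The E17.5 values were 1.90 and 1.72 FPKM in the mutant libraries, against 1.82 and 1.93 FPKM in the wild-type libraries. The pairs overlapped, and Pgr had the smallest difference among the tested members, -0.03 on the log2 scale (standard error 0.090, 95% interval -0.26 to 0.19, limma adjusted p = 0.904). The mean over the E17.5 libraries was 13.4 times that over the E12 libraries, a ratio across tables that were made separately. The Pgr to Esr1 ratio of FPKM at E17.5 was 1.48 and 2.08 in the mutant libraries and 1.84 and 1.99 in the wild-type libraries, so progesterone receptor transcripts were the more abundant per length in every library.

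The windows of 250 bases before the start of Pgr, which was higher at E17.5 than at E12, and of Igf1r, which was not, are shown because they stand at opposite ends in CpG content as well. They come from RefSeq on GRCm38.p6, a later build than that of the expression tables, at chr9:8899583-8899832 and chr7:67952007-67952256, both on the plus strand, and capitals mark the only match in them to the forkhead core letters TAAACA, searched on both strands.
Pgr promoter: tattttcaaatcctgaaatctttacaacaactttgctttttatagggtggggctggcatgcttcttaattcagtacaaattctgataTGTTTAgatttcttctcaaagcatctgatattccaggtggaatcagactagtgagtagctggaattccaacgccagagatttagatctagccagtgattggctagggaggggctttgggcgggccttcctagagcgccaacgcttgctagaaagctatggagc
Igf1r promoter: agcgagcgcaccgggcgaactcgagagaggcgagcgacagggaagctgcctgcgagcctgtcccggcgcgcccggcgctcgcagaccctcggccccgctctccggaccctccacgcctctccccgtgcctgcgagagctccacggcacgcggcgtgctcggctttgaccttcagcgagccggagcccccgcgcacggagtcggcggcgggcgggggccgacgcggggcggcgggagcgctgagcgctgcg
The Pgr window held 4 CpG dinucleotides at 43.6% GC and the Igf1r window 42 at 77.6% GC, beside a median of 6 over 32851 promoter windows of the same length. Windows were found for 7 of the 10 members, 10 windows in all, and none for Insr, Nr3c1 and Mc4r. Besides Igf1r they held between 4 and 17 CpG dinucleotides, with 4 and 7 in the windows of Esr1. Among other members with a higher E17.5 mean, the window of Nr3c2 held 17 and those of Ghr 8 and 17. Whether CpG content goes with the course in stage was not tested. The forkhead letters occurred in 1 of the 10 windows, that of Pgr, and in 12.03% of all windows. No member window held the estrogen receptor letters, GGTCA and TGACC spaced by 3 bases, which occurred in 0.0639% of all windows, or the glucocorticoid receptor letters ACANNNTGT, which occurred in 5.84%. A match, or the lack of one, is a description of these letters only.

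The corticosteroid receptor genes were above 0 in every library, with Nr3c1 near 1 FPKM and Nr3c2 low at the first stage. Nr3c1, the glucocorticoid receptor gene, was at 0.925 FPKM in mutant and 0.971 FPKM in wild-type at E12.0, and at 1.65 FPKM in mutant and 1.48 FPKM in wild-type at E12.5. At E17.5 it was at 6.67 and 6.35 FPKM in the mutant libraries, against 6.67 and 5.58 FPKM in the wild-type libraries. The genotypes overlapped at the top of the range, and the log2 difference was 0.08 (standard error 0.093, 95% interval -0.15 to 0.31, limma adjusted p = 0.778). Nr3c2, the mineralocorticoid receptor gene, was at 0.148 FPKM in mutant and 0.123 FPKM in wild-type at E12.0, and at 0.443 FPKM in mutant and 0.440 FPKM in wild-type at E12.5. Its E17.5 values were 1.89 and 1.84 FPKM in the mutant libraries, against 1.70 and 1.62 FPKM in the wild-type libraries. Both mutant libraries lay above both wild-type libraries by a difference in means of 12.3%, and the test did not pass (log2 difference 0.11, standard error 0.086, 95% interval -0.11 to 0.32, limma adjusted p = 0.713). An exon of Nr3c2 overlaps Gm10649 on the opposite strand in the GENCODE annotation, and since no source says whether counting used strand, reads of the overlap cannot be told apart.

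The corticosteroid receptors bind some of the same hormones with different affinity, and their balance was similar at E12.5 and E17.5. The ratio of Nr3c1 to Nr3c2 in FPKM was 6.27 in mutant and 7.92 in wild-type at E12.0, and 3.73 in mutant and 3.36 in wild-type at E12.5. At E17.5 it was 3.54 and 3.45 in the mutant libraries, against 3.93 and 3.44 in the wild-type libraries. At E17.5 the mutant ratios lay within the range of the wild-type ones. Hsd11b2, whose enzyme inactivates glucocorticoids before they reach the receptor, had the opposite course in stage, at 15.4 FPKM in mutant and 14.0 FPKM in wild-type at E12.0, 14.7 FPKM in mutant and 9.89 FPKM in wild-type at E12.5, and 0.248 and 0.236 FPKM in mutant against 0.343 and 0.357 FPKM in wild-type libraries at E17.5. Hsd11b1, which regenerates active hormone, was listed at 0 in all 4 E12 libraries and did not exceed 0.287 FPKM at E17.5.

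Lepr, the leptin receptor gene, was at 0.171 FPKM in mutant and 0.188 FPKM in wild-type at E12.0, and at 0.1503 FPKM in mutant and 0.172 FPKM in wild-type at E12.5. At E17.5 its values were 3.20 and 3.49 FPKM in the mutant libraries, against 2.90 and 1.88 FPKM in the wild-type libraries, a mean of 3.35 ± 0.204 FPKM in mutant and 2.39 ± 0.724 FPKM in wild-type (SD, n = 2 each). Both mutant libraries lay above both wild-type libraries, and the gap between the wild-type libraries was wider than that between the higher of them and the mutant pair. The log2 difference was 0.37 (standard error 0.154, 95% interval -0.01 to 0.76, limma adjusted p = 0.689), and it was 0.15 without wild-type replicate 2 and 0.59 without wild-type replicate 1. Without either, it did not pass the threshold. The mean over the E17.5 libraries was 16.8 times that over the E12 libraries, above that of every other member except Esr1, which was listed at 0 in both E12.0 libraries.

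The E17.5 tables list Lepr by transcript, which separates forms that share the receptor's outer part and differ in the tail inside the cell. The long form carries the motifs that bind STAT proteins and is the form needed for leptin's control of feeding, whereas the short forms lack them and are known from brain vessels, meninges and choroid plexus. The last 30 shared coding bases are given in lower case and the form's own coding bases in capitals, all of them for the short forms and the first 60 of 819 for the long form, read from GENCODE transcripts on chromosome 4 and matched by RefSeq accession.
Lepr short form, 894 residues: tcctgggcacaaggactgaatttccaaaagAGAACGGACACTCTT
Lepr short form, 892 residues: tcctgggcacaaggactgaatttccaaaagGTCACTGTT
Lepr long form, 1162 residues: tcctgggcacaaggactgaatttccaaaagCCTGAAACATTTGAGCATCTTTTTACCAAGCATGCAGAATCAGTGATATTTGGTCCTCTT
The forms share 2667 coding bases. The 894-residue form made up 94.1% and 96.6% of Lepr FPKM in the mutant libraries and 96.0% and 91.8% in the wild-type libraries. Its level was 3.02 and 3.37 FPKM in the mutant libraries, against 2.79 and 1.73 FPKM in the wild-type libraries, most of the level of the gene. The long form was at 0.188 and 0.120 FPKM in the mutant libraries, against 0.115 and 0.0867 FPKM in the wild-type libraries, an estimated 29.9 and 14.5 fragments in mutant and 15.8 and 14.8 in wild-type. Its share was 5.87% and 3.43% in the mutant libraries and 3.96% and 4.61% in the wild-type libraries, and these overlapped. Rows of overlapping transcripts are estimates that divide shared fragments between forms, so the split is less sure than the sum.

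Some markers of the meninges lay on the same side as Lepr at E17.5, and others did not. Dcn, the decorin gene of fibroblasts in the meninges, and Dab2 were the genes most alike to Lepr over the 8 libraries, each with a Pearson r of 0.997 among 12519 genes, a description over libraries that mostly reflects the step between E12 and E17.5. Dcn was at 30.1 and 29.3 FPKM in the mutant libraries, against 22.6 and 13.4 FPKM in the wild-type libraries, the same order of groups and the same low library as in Lepr. Of 8 meningeal and mesenchymal markers, 4 had both mutant libraries above both wild-type libraries, beside 20.9% of all genes tested. These were Dcn, Lum, Slc13a4 and Tbx18, while Col1a2, Col3a1 and Foxc1 overlapped between the genotypes. Col1a1, a collagen gene, was at 47.3 and 30.7 FPKM in the mutant libraries, against 53.8 and 35.5 FPKM in the wild-type libraries (log2 difference -0.19). The sum of the list was 250 and 177 FPKM in the mutant against 225 and 138 FPKM in the wild-type libraries, so the mutant library with the highest Lepr lay below a wild-type library in this sum. Choroid plexus markers did not follow Lepr, since their lowest sum, 12.3 FPKM, and their highest, 353 FPKM, were both in mutant libraries. Endothelial markers, 8 in number, had 3 with both mutant libraries above both wild-type libraries and 0 with both below. Their sums overlapped, at 110 and 96.5 FPKM in the mutant against 102 and 93.5 FPKM in the wild-type libraries. None of the 8 meningeal markers was at 0 in all E17.5 libraries. The part of any of these tissues in the Lepr values was not tested.

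Ghr, the growth hormone receptor gene, was at 1.08 FPKM in mutant and 0.757 FPKM in wild-type at E12.0, and at 1.17 FPKM in mutant and 1.24 FPKM in wild-type at E12.5. By E17.5 it stood at 3.90 and 3.91 FPKM in the mutant libraries, against 3.83 and 3.004 FPKM in the wild-type libraries. The mutant libraries lay close together and just above the higher wild-type library, with a log2 difference of 0.16 (standard error 0.108, 95% interval -0.11 to 0.43, limma adjusted p = 0.693). A short Ghr transcript encodes the secreted growth hormone binding protein, which lacks the membrane anchor and in rodents is made by alternative splicing. The junction is shown in the same way as for Lepr, from a transcript on chromosome 15 with its first 60 of 80 own bases.
Ghr short form, 297 residues: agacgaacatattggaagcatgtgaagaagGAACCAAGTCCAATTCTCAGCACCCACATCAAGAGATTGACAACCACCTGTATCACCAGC
This row was at 1.57 and 1.23 FPKM in the mutant libraries, against 1.097 and 0.698 FPKM in the wild-type libraries, or 40.3% and 31.4% of Ghr FPKM in mutant and 28.6% and 23.2% in wild-type. Both mutant libraries were above both wild-type libraries in level and in share, on an estimated 63.4 and 37.5 fragments in mutant and 38.1 and 30.1 in wild-type, and no test was made of single transcripts. The other 2 rows both encode the 650-residue receptor, and each overlapped between the genotypes. The shorter of them was at 1.73 and 2.65 FPKM in the mutant and 1.41 and 1.90 FPKM in the wild-type libraries. The longer was at 0.601 and 0.0343 FPKM in the mutant and 1.32 and 0.409 FPKM in the wild-type libraries.

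**Figure D2:**
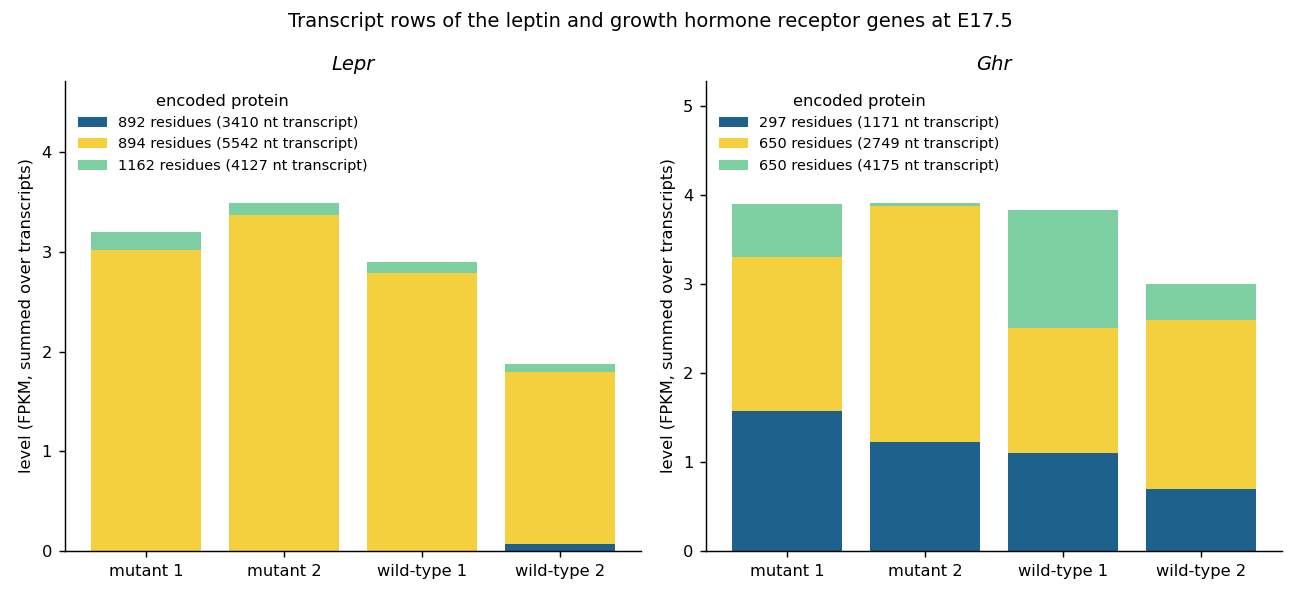
Transcript rows of Lepr (left) and Ghr (right) in the 4 E17.5 libraries, mutant left of wild-type; stacked bars give FPKM from 0, coloured by the protein each transcript encodes. The 894-residue form fills at least 91.8% of each Lepr bar, and the 297-residue part of the Ghr bars is tallest in the mutant libraries, at 1.57 and 1.23 FPKM.

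Insr and Igf1r, the insulin and IGF1 receptor genes, were the most abundant members at every stage and the only ones without a marked increase by E17.5. Insr was at 7.85 FPKM in mutant and 11.7 FPKM in wild-type at E12.0, and at 11.2 FPKM in mutant and 11.4 FPKM in wild-type at E12.5. The E17.5 values were 13.05 and 13.4 FPKM in the mutant libraries, against 12.6 and 13.03 FPKM in the wild-type libraries, with a log2 difference of 0.04 (standard error 0.057, 95% interval -0.10 to 0.18, limma adjusted p = 0.801). Igf1r was at 12.2 FPKM in mutant and 18.9 FPKM in wild-type at E12.0, and at 15.5 FPKM in mutant and 14.5 FPKM in wild-type at E12.5. At E17.5 it was at 12.3 and 12.6 FPKM in the mutant libraries, against 12.3 and 11.8 FPKM in the wild-type libraries, with a log2 difference of 0.05 (standard error 0.058, 95% interval -0.10 to 0.19, limma adjusted p = 0.781). Both genes thus had late differences under 4%, at 3.26% for Insr and 3.72% for Igf1r, with intervals among the narrowest of the members. The Igf1r to Insr ratio was lower at each later stage, at 1.55 in mutant and 1.62 in wild-type at E12.0, 1.37 in mutant and 1.28 in wild-type at E12.5, and 0.946 and 0.941 in mutant against 0.978 and 0.902 in wild-type libraries at E17.5.

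At E12.0 both kinase genes were lower in the mutant library, with log2 differences of -0.52 for Insr and -0.59 for Igf1r, from 1 library per genotype and with no test. At E12.5 the same differences were -0.01 for Insr and 0.09 for Igf1r. Other long genes were also lower in the E12.0 mutant library. Insr has a transcript of 9355 nucleotides and Igf1r of 11409, and among the 1020 tested genes with a transcript over 7000 nucleotides 78.6% were lower in mutant at E12.0, with a median log2 difference of -0.20 and quartiles of -0.45 and -0.02. Genes with a transcript under 2000 nucleotides had a median of 0.15 at E12.0, and at E12.5 the medians of the same length groups were 0.04 and -0.02. The part of transcript length in the Insr and Igf1r values at E12.0 was not tested.

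Over both early stages 4 members could be tested, and 0 of the 4 passed, beside 0.0335% of 11952 genes. None reached an unadjusted p under 0.05, beside 1.41% of genes, and 2 of the 4 log2 differences were above 0, beside 52.2%. The early fit had 1 residual degree of freedom, so its p depends on how unlike the genotype differences of E12.0 and E12.5 were. The log2 difference was -0.27 for Insr (standard error 0.172), -0.25 for Igf1r (0.196), 0.10 for Ghr (0.195) and 0.03 for Nr3c1 (0.183), with limma adjusted p between 0.976 and 0.994. Insr was the only one of the 4 that was below wild-type in the mutant at both stages, beside 21.8% of genes, and none was above at both, beside 25.9%. None of the 4 differed 2-fold at E12.0, beside 2.55% of genes, or at E12.5, beside 0.703%. Without either E12.5 library, where the difference is that of E12.0 alone and the spread comes mainly from E17.5, Insr and Igf1r passed at adjusted p of 0.0145 to 0.0186 and 0.0110 to 0.0149, and without both E12.0 libraries they were at -0.01 and 0.09.

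**Figure D3:**
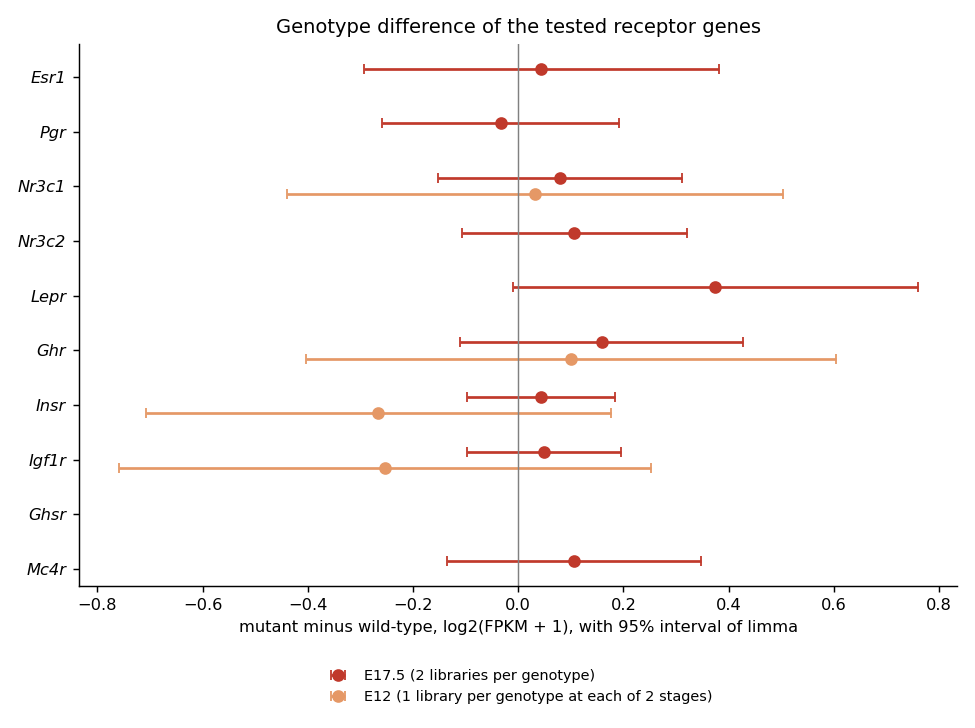
Mutant minus wild-type difference on log2(FPKM + 1) for each receptor gene with its 95% interval from limma, at E17.5 (dark) and over E12.0 and E12.5 (light); genes without a mark were under a mean of 1 FPKM. Every interval includes 0, with the Lepr interval at E17.5 reaching from -0.01 to 0.76, and the early intervals are wider than the late ones.

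Ghsr, the ghrelin receptor gene, was the least abundant member at E17.5. It was at 0.0336 FPKM in mutant and 0.0747 FPKM in wild-type at E12.0, and at 0.0221 FPKM in mutant and 0.0102 FPKM in wild-type at E12.5. Its E17.5 values were 0.305 and 0.325 FPKM in the mutant libraries, against 0.378 and 0.428 FPKM in the wild-type libraries, an estimated 52.4 and 42.2 fragments in mutant and 55.9 and 78.7 in wild-type. It was the only member with both mutant libraries below both wild-type libraries, with a difference in means of -21.9%, and it was too low to be tested. Ghrl, the precursor gene of its ligand ghrelin, was at 0.0632 and 0.148 FPKM in the mutant libraries, against 0.630 and 0.294 FPKM in the wild-type libraries.

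Mc4r, whose receptor curbs food intake and is expressed in the paraventricular nucleus among other sites, was at 0.523 FPKM in mutant and 0.639 FPKM in wild-type at E12.0, and at 0.584 FPKM in mutant and 0.634 FPKM in wild-type at E12.5. By E17.5 it stood at 1.47 and 1.51 FPKM in the mutant libraries, against 1.42 and 1.22 FPKM in the wild-type libraries. The mutant pair was above the wild-type pair by a difference in means of 13.1%, which did not pass the test (log2 difference 0.11, standard error 0.097, 95% interval -0.14 to 0.35, limma adjusted p = 0.730). Sim1, a transcription factor gene of the paraventricular neurons in which Mc4r acts, was at 8.23 and 8.34 FPKM in the mutant libraries, against 10.6 and 9.89 FPKM in the wild-type libraries (log2 difference -0.28, limma adjusted p = 0.689). Mc4r did not share that direction.

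Considered by side alone, 6 of the 9 tested members had both E17.5 mutant libraries above both wild-type libraries, namely Nr3c2, Lepr, Ghr, Insr, Igf1r and Mc4r, beside 20.9% of all genes tested, and 0 of the 9 had both below, beside 22.2%. With small RNA genes left out and FPKM rescaled the count was 3, namely Nr3c2, Lepr and Mc4r. With the highest row in place of the sum for each symbol it was 5, without Ghr. Leaving out small RNA genes moved the median of all genes by -0.03 on the log2 scale. Mutant replicate 2, the library with 9.87% of FPKM in small RNA genes, had the higher value of the mutant pair for Lepr, Ghr, Insr, Igf1r, Ghsr and Mc4r. The part of the small RNA share in these differences was not tested beyond leaving those genes out.

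Over all stages 0 of 7 tested members passed, beside 0% of 12519 genes called and 5.55% at an unadjusted p under 0.05, which 0 of the 7 members reached. The log2 difference was above 0 for 5 of the 7, beside 50.7% of genes. Values ran between -0.11 for Insr and 0.18 for Lepr, with limma adjusted p of at least 0.749. Whether the genotype difference itself differed between E17.5 and E12 was tested for the same 7 members, and 0 passed, beside 0.032% of genes. None had an unadjusted p under 0.05, beside 3.95%. The difference was positive for all 7, meaning that the mutant stood higher relative to wild-type at E17.5 than at E12, beside 50.4% of all genes. With a library left out it turned negative for 3 of the 7, reaching -0.0362 for Igf1r without an E12.0 library, -0.0634 for Nr3c1 without wild-type replicate 2 of E17.5 and -0.0877 for Ghr without an E12.5 library. The difference was 0.40 for Lepr (standard error 0.232), 0.31 for Insr (0.173), 0.30 for Igf1r (0.217) and 0.18 for Mc4r (0.155), with limma adjusted p between 0.7493 and 0.7502. Lepr, Insr and Mc4r, 3 of the 7, had the mutant below wild-type at E12.0 and E12.5 and both mutant libraries above both wild-type libraries at E17.5, beside 3.78% of genes. Lepr and Mc4r were among the 7 only through their E17.5 values, and Insr lost its E17.5 side without small RNA genes. No conclusion is drawn from that count.

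In stage, 8 of the 10 members had an E17.5 mean at least 2-fold above the E12 mean. Among the 7 members that averaged 1 FPKM or more over all 8 libraries the count was 5, beside 22.9% of the 12519 such genes. Of the 7, Nr3c2, Lepr and Mc4r averaged 0.288, 0.170 and 0.595 FPKM at E12. They met that limit only through their E17.5 values, so for them the count was not independent of the limit, and no conclusion is drawn from it. The other 3 members, Esr1, Pgr and Ghsr, averaged less than 1 FPKM. The exceptions to the 8 were Insr, at 1.24 times, and Igf1r, at 0.803 times. Ghr was no longer among the 8 when the highest row stood for the gene. The ratio was 6.11 for Nr3c2, 5.03 for Nr3c1, 3.44 for Ghr and 2.37 for Mc4r. E12 tables have a row per gene and E17.5 tables a row per transcript, and they were made separately, so ranks within a library were read as well. By its percentile among the 22725 shared symbols, each of 6 members, Esr1, Pgr, Nr3c1, Nr3c2, Lepr and Ghr, stood higher in every E17.5 library than in every E12 library. Mc4r held its rank, at a mean percentile of 46.5 at E17.5 and 46.0 at E12, although its FPKM was 2.37 times as high. Ghsr overlapped between the stages, and Igf1r had a lower rank at E17.5, at 72.9 against 79.7 at E12.

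**Figure D4:**
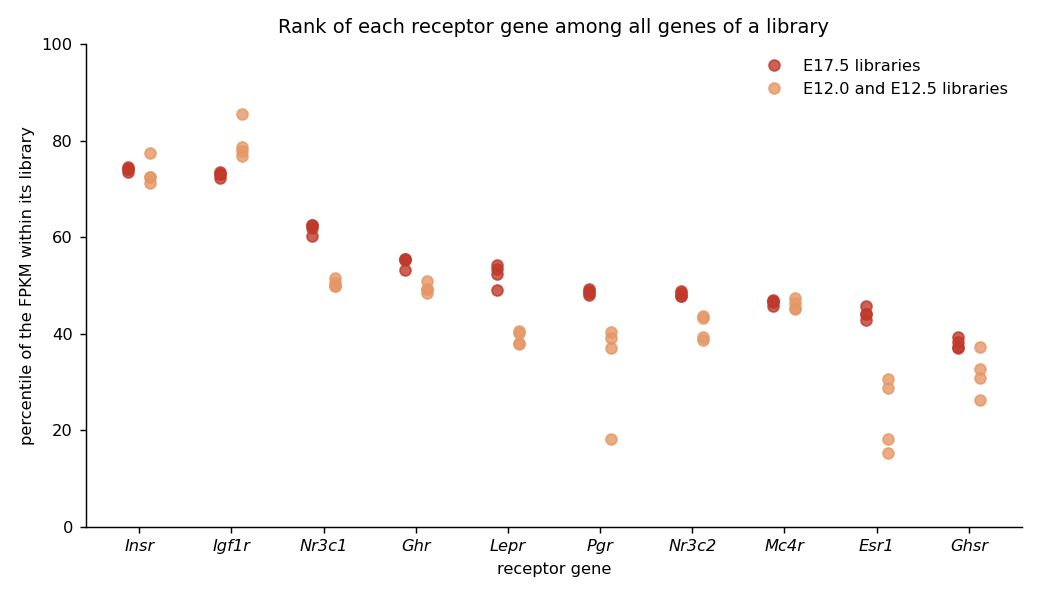
Percentile of each receptor gene's FPKM among the symbols shared by all tables, in each E17.5 library (left of each pair) and each E12.0 or E12.5 library (right of each pair), both genotypes together. Insr and Igf1r stand highest in every library, Nr3c1 has a mean of 61.8 at E17.5 and 50.5 at E12, and Mc4r a mean of 46.5 at E17.5 and 46.0 at E12.

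The order of levels at E17.5 by mean percentile was Insr (74.1), Igf1r (72.9), Nr3c1 (61.8), Ghr (54.8), Lepr (52.3), Pgr (48.6), Nr3c2 (48.2), Mc4r (46.5), Esr1 (44.2) and Ghsr (38.0). The ranges over the 4 libraries overlapped between the neighbours Ghr and Lepr, Lepr and Pgr, and Pgr and Nr3c2. Mc4r and Esr1 met at their edges, since the lowest Mc4r value and the highest Esr1 value both round to 45.7. The other neighbours did not overlap.

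Other genes followed the members over the 8 libraries, chiefly by the step between E12 and E17.5, which all 8 libraries share. Nr3c1 was most alike to Tmtc1 and Pdk1, each with a Pearson r of 0.999 on log2(FPKM + 1). Nr3c2 was most alike to Clmp and Hectd2 (each 0.999), Ghr to Clec2d (0.997) and Snx7 (0.996), and Mc4r to Serpinf1 and Crispld1 (each 0.998). Insr and Igf1r had partners that shared their low value in the E12.0 mutant library: Sobp, the gene most alike to Insr at 0.997, was at 8.13 FPKM in mutant and 12.6 FPKM in wild-type at E12.0, and Rbm33, at 0.990 with Igf1r, was at 7.63 FPKM in mutant and 14.3 FPKM in wild-type.

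Genes that act with the steroid receptors were expressed throughout and none passed the threshold. For this list and those that follow, 51% of all genes tested were higher in mutant at E17.5 and 52.2% over both early stages. Leaving out small RNA genes moved the median of all genes by -0.03 at E17.5 and by -0.0975 at E12, so small list medians depend on that choice. Of 18 chaperone and coregulator genes, 15 were higher and 3 lower in mutant at E17.5, with a median log2 difference of 0.06. Among them Ncor1, a corepressor gene, was at 38.3 and 43.1 FPKM in the mutant libraries, against 35.8 and 36.8 FPKM in the wild-type libraries, and Hsp90ab1, which holds unliganded receptors, was at 754 and 813 FPKM against 738 and 735 FPKM. Over both early stages the same list had 13 genes lower and 5 higher in mutant, with a median of -0.08. That count was also that of the E12.0 pair alone, and at E12.5 3 were lower and 15 higher. Of 13 genes that glucocorticoids induce in other tissues, 9 were lower and 4 higher in mutant at E17.5, with a median of -0.06. Dusp1, a phosphatase gene, was at 7.20 and 7.18 FPKM in the mutant libraries, against 8.53 and 7.65 FPKM in the wild-type libraries (log2 difference -0.15), and Ddit4, an inhibitor of mTOR signalling, was at 24.7 and 23.4 FPKM against 27.1 and 26.5 FPKM (-0.15). Fkbp5, the standard readout of glucocorticoid receptor activity, was at 15.2 and 14.7 FPKM in mutant and 14.9 and 14.7 FPKM in wild-type libraries.

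The other nuclear receptor genes were split, with 5 of 16 tested higher and 11 lower in mutant at E17.5, at a median of -0.01. Rxrg, the retinoid X receptor gamma gene, was at 5.80 and 6.02 FPKM in the mutant libraries, against 5.29 and 4.56 FPKM in the wild-type libraries (log2 difference 0.22). Rarb, a retinoic acid receptor gene, was at 3.87 and 4.83 FPKM in mutant against 3.90 and 3.20 FPKM in wild-type, and Esrra, an orphan receptor gene of mitochondrial metabolism, at 5.89 and 5.49 FPKM against 6.53 and 7.02 FPKM (-0.22). Steroid synthesis genes were mostly too low to test, with 3 of 12 tested. Cyp19a1, the aromatase gene that makes estrogen in the developing hypothalamus, was at 0.780 and 0.658 FPKM in the mutant libraries, against 0.483 and 0.451 FPKM in the wild-type libraries, both under the limit for testing.

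Downstream of the cytokine-type receptors, 10 of 18 tested genes were higher and 8 lower in mutant at E17.5, with a median of 0.01. Socs2, a feedback inhibitor of growth hormone signalling, was at 14.5 and 18.6 FPKM in the mutant libraries, against 13.5 and 13.1 FPKM in the wild-type libraries (log2 difference 0.28, limma adjusted p = 0.689). Socs3, the feedback inhibitor of the leptin receptor, was at 2.46 and 2.58 FPKM in mutant against 2.93 and 2.58 FPKM in wild-type. Prlr, the prolactin receptor gene and a relative of Ghr, was at 1.346 and 1.59 FPKM in the mutant libraries, against 1.26 and 0.971 FPKM in the wild-type libraries (0.23), and was under 0.1 FPKM in every E12 library. Of the ligand genes, Lep was listed at 0 in all 8 libraries, and Gh was at 35.8 and 41.0 FPKM in mutant against 59.4 and 15.5 FPKM in wild-type, beside the unequal pituitary markers given above.

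Of the insulin and IGF ligand and binding protein genes, 8 of 9 tested were higher and 1 lower in mutant at E17.5, with a median of 0.11, and 6 of 7 were lower over both early stages, where 4 were lower at E12.0 and 4 at E12.5. Igfbp3, a binding protein gene, was at 9.49 and 11.6 FPKM in the mutant libraries, against 8.70 and 8.12 FPKM in the wild-type libraries (log2 difference 0.29). Igf2, a growth factor gene strongly expressed in meninges and choroid plexus, was at 77.5 and 57.0 FPKM in mutant against 70.0 and 44.2 FPKM in wild-type, in the same order over the 4 libraries as the summed meningeal markers. Their part in the Igf2 values was not tested. Ins1 was listed at 0 in all 8 libraries. Of 23 insulin and IGF signalling genes, 14 were higher and 9 lower at E17.5 (median 0.02), and over both early stages 4 were higher and 19 lower (median -0.09), beside medians over all genes of 0.00284 at E17.5 and 0.00856 at E12. The early count was also that of the E12.0 pair, and at E12.5 13 were higher and 10 lower.

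Around the G protein-coupled members, 5 of 13 tested ligand and accessory genes were higher and 8 lower in mutant at E17.5. Pcsk2, which processes the melanocortin precursor, was at 15.3 and 13.6 FPKM in the mutant libraries, against 17.6 and 18.4 FPKM in the wild-type libraries (log2 difference -0.30, limma adjusted p = 0.689). Pomc, the precursor gene of the Mc4r agonist and of pituitary corticotropin, was at 18.6 and 41.4 FPKM in mutant against 38.9 and 11.3 FPKM in wild-type, so its spread within each genotype exceeded the difference. Agrp, the gene of the Mc4r antagonist, was at 0.941 and 0.995 FPKM in mutant against 0.870 and 0.599 FPKM in wild-type. Of 22 other hormone and metabolic receptor genes tested, 11 were higher and 11 lower. Ramp1, a calcitonin receptor partner, was at 2.94 and 2.55 FPKM in the mutant libraries, against 3.60 and 3.86 FPKM in the wild-type libraries (-0.34), and Avpr1a, a vasopressin receptor gene, at 2.45 and 2.33 FPKM against 2.79 and 3.16 FPKM (-0.23). In all 9 lists, 0 genes passed the adjusted limma threshold in any of the 4 fits. At an unadjusted p under 0.05 there were 9 of 134 at E17.5 (6.72%, beside 5.7% of all genes) and 4 of 111 at E12 (3.6%, beside 1.41%). There were 4 of 128 over all stages (3.12%, beside 5.55%) and 5 of 128 for the difference (3.91%, beside 3.95%).

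**Figure D5:**
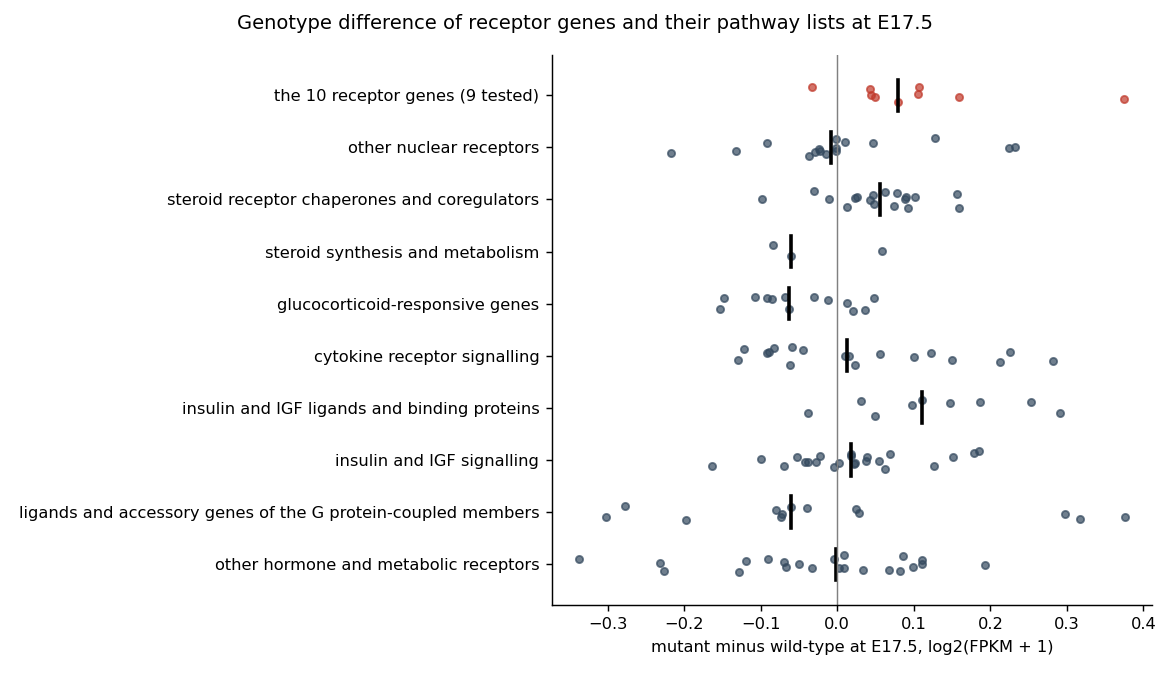
Mutant minus wild-type difference at E17.5 on log2(FPKM + 1) for the tested receptor genes (top row) and for the tested genes of 9 related lists; each point is a gene and each vertical bar the median of its row. The medians lie between -0.06 and 0.11, and no point passed the adjusted threshold.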

How the data were processed

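The deposited values are FPKM. Per the submitters' processing notes, the authors used TopHat and Cufflinks with mouse build mm9, with versions not given in the sources used here. Per the labels' protocols, libraries of pooled RNA were sequenced with paired ends of 100 cycles on an Illumina HiSeq 2500. The E12 tables held a row per gene and the E17.5 tables a row per transcript, and rows sharing a symbol were summed. In each fit, the genes that averaged 1 FPKM or more were tested on log2(FPKM + 1) with limma 3.58.1 in R 4.3.3, with a variance trend, two-sided, adjusted by Benjamini-Hochberg at 0.05. A difference on this scale understates the change of low genes. The fits were E17.5 alone (4 libraries), E12 with stage as a block (4), all stages blocked by stage (8) and the difference of the early and late genotype terms (8). No counts were used, so no count model was fitted. The members and all lists were chosen with earlier results of these data known. All members are named. Of each list, genes past the threshold, receptor partners and the 3 largest changes were eligible, and the 2 genes most alike to each tested member by Pearson r, leaving out predicted, small RNA and histone genes. Fragment numbers were estimated at E17.5 from the FPKM of 1 fragment, with 170 nucleotides taken off each transcript length, where 79.5% to 81.8% of low values lay near whole numbers. They cover counting error only. Transcripts came from a GENCODE annotation of GRCm38. The fits were tested on simulated data. The genotypes share replicate numbers at E17.5, where the replicate differences of mutant and wild-type had a correlation of 0.0280. That value shows no large shift shared by replicate number, but it cannot tell whether the pools were paired. The replicate number was left out of the fits. Python 3.11.15, numpy 2.4.6, pandas 2.3.3 and matplotlib 3.10.9 were used.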

Additional observations from a re-analysis of the deposited data

Results flagged for a closer look

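The genotype difference of 3 receptor genes took opposite sides at the 2 ages, with every mutant library below its wild-type partner at E12.0 and E12.5 and both mutant libraries above both wild-type libraries at E17.5. They were Lepr, Insr and Mc4r, 3 of the 7 members tested over all stages, beside 3.78% of genes. Lepr and Mc4r, at means of 0.170 and 0.595 FPKM at E12, were among the 7 only through their E17.5 values. With small RNA genes left out, Insr no longer had both mutant libraries above both wild-type libraries at E17.5. No conclusion is drawn from this count. The change in the difference, E17.5 minus E12 on log2(FPKM + 1), was 0.40 for Lepr (standard error 0.232), 0.31 for Insr (0.173) and 0.18 for Mc4r (0.155), and none passed the test (limma adjusted p of 0.7493 for Lepr and Insr and 0.7502 for Mc4r). At E12 Lepr was under 0.2 FPKM in both genotypes, and the E12 difference of Insr is that of the E12.0 pair, -0.52, since it was -0.01 at E12.5.

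Kiss1r, the kisspeptin receptor gene, took the opposite course, with mutant above wild-type at both early stages and below at E17.5. It was at 0.361 FPKM in mutant and 0.109 FPKM in wild-type at E12.0, and at 0.778 FPKM in mutant and 0.655 FPKM in wild-type at E12.5. At E17.5 it was at 0.886 and 0.848 FPKM in the mutant libraries, against 1.14 and 1.25 FPKM in the wild-type libraries. The change in the difference was -0.43 and was not tested, because the mean over all libraries was under 1 FPKM. Other listed genes also took these sides, among them Hsd11b2, Socs1 and Mtor, with changes of -0.446, -0.807 and -0.101. None of them passed the test (limma adjusted p of 0.749 for Hsd11b2 and Socs1 and 0.759 for Mtor). The share of all genes with these sides was not counted, so no conclusion is drawn from these genes.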

How the results depend on the processing

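No member passed the threshold at E17.5 or over all stages under any alternative run. At E12 and for the difference between ages, the count of members past the threshold was 0 under every alternative except where 1 E12.5 library was left out, with a range of 0 to 2 (Insr and Igf1r). The number of all genes past the threshold at E17.5 was 1, and it was 0 with no filter or a filter at 5 FPKM, 16 with the replicate number as a block, which changed no call on a member, and 1 to 44 with a library left out. At E12 it was 4, and it was 1 with a pseudocount of 5, no filter, quantile normalization, upper quartile scaling or no variance trend, 78 with no stage block, 58 without both E12.0 libraries and 55 to 2595 with a library left out. For the difference it was 4, and it was 1 with a pseudocount of 0.1 or 5 or quantile normalization, 0 with no filter, a filter at 5 FPKM or upper quartile scaling, 48 without both E12.0 libraries and 0 to 1465 with a library left out. Members with both mutant libraries above both wild-type libraries at E17.5 numbered 6, and 6 to 7 with a library left out, 5 with the highest row per symbol (without Ghr) and 3 without small RNA genes.

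Small differences changed sign. Without small RNA genes Nr3c1 at E12 was at -0.0334 and Mc4r over all stages at -0.0206, and Mc4r was also at -0.00236 with a pseudocount of 0.1. Without both E12.0 libraries the E12 value was -0.0455 for Ghr and 0.0853 for Igf1r, that over all stages 0.0238 for Insr and 0.0611 for Igf1r, and the difference -0.0183 for Nr3c1 and -0.0362 for Igf1r. With a library left out, E17.5 values ran from -0.0314 to 0.190 for Nr3c1, -0.0814 to 0.0148 for Pgr, -0.0731 to 0.578 for Igf2, -0.471 to 1.22 for Pomc, -0.620 to 1.25 for Gh and -0.239 to 0.0232 for Cdkn1a. E12 values ran from -0.0339 to 0.0978 for Nr3c1, -0.0455 to 0.246 for Ghr and -0.593 to 0.0853 for Igf1r. Values over all stages ran from -0.151 to 0.0238 for Insr and -0.165 to 0.0611 for Igf1r, and the difference from -0.0634 to 0.158 for Nr3c1, -0.0877 to 0.204 for Ghr and -0.0362 to 0.642 for Igf1r. The cause of these moves was not tested. At E12 and in the difference, leaving out a library of a pair removes that pair's comparison, and the lone library is assumed to vary like the others. Depth is not known at E12. At E17.5 it leaves Ghsr, the long form of Lepr and the 297-residue form of Ghr on fewer than 100 fragments per library. Alternatives without E12.0 were chosen after seeing the data.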
